A study of Mus musculus with 30 samples.

Results

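Neural progenitor cultures of 2 groups, both without intact Mbd3, were compared: Mbd3 knockout cells with no added construct (MBD3KO, libraries s04, s05 and s06) and Mbd3 knockout cells carrying a methyl-binding mutant of MBD2a (MBD2aR181C, libraries s19, s20 and s21). The 6 libraries were chosen by their labels from 24 RNA-seq libraries in a series of 30 samples. All 25400 genes of the count table were considered, and the 16582 genes that passed a filter on low counts were tested. The cells were HA36CB1 mouse embryonic stem cells of a 129×C57BL/6 background that also carry the BirA biotin ligase and a recombination site for cassette exchange. Mbd3 had been disrupted with CRISPR-Cas9 guides against exons 2 and 3, and the construct was placed into the recombination site with Cre. It encodes biotin-tagged full-length MBD2a under the strong CAG promoter. The substitution is written R181C in the sample labels, R191C in the study's text and R64C in the column names of the count table, and the name of the labels is used here. Both groups keep the endogenous Mbd2 gene. The knockout libraries carry no empty construct, so between these 2 groups the insertion itself and the mutant protein cannot be told apart. The MBD2a and MBD2t groups named below carry a construct at the same site, and the effect of the insertion alone was not tested. Each library was an individually derived clone, harvested at day 8 of a retinoic acid-driven differentiation towards neural progenitors. The other groups used below, also with 3 libraries each, were wild-type cells (WT) and the same knockout background with MBD3a, MBD3 without its methyl-binding domain (MBD3dMBD), MBD2a, MBD2a without its glycine-arginine repeat (MBD2adelGR), or MBD2t. MBD2t is a short form without the coiled-coil, and its libraries were repeats of 1 clone.

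MBD2 and MBD3 are the interchangeable methyl-CpG-binding-domain subunits of NuRD, a repressor complex that joins a CHD nucleosome remodeller to histone deacetylases, MTA scaffold proteins, RBBP histone chaperones and GATAD2 proteins. MBD2 binds methylated CpG dinucleotides through its methyl-binding domain, whereas the domain of mammalian MBD3 has little preference for methylated DNA. In embryonic stem cells MBD3-NuRD is known for damping pluripotency genes and allowing cells to leave self-renewal, and Mbd3-deficient cells are known to commit poorly. The question behind the comparison was whether MBD2a that cannot recognise methylated DNA changes the expression programme of differentiating cells that lack MBD3.

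The 6 libraries held between 34446766 and 49392806 counts. Of the counts, 0.82% to 1.29% in MBD2aR181C and 1.96% to 2.09% in MBD3KO came from mitochondrial genes, and the part of this difference in the results was not tested. No pair of libraries of either group was identical: the chi-square per gene was 70.0 to 106 within MBD2aR181C and 10.0 to 75.7 within MBD3KO. Levels are given in CPM, a gene's count relative to the library's total after trimmed mean of M-values scaling. A gene was called when edgeR's quasi-likelihood test gave a Benjamini-Hochberg adjusted p under 0.05 and the log2 fold change exceeded 1 in either direction, and ± marks the standard error of a log2 fold change. With 3 against 3 libraries the smallest p of an exact two-sided permutation test is 0.1, so single genes rest on the model fitted across all genes. The spread behind the p-values was estimated over all 24 libraries, not over these 6 alone. It includes the 3 MBD2t libraries, which are repeats of 1 clone.

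Mbd2, the gene carried by the construct, was read first as a check of the labels. Its level was 65.3, 64.2 and 70.9 CPM in the knockout libraries s04, s05 and s06, and 253, 256 and 325 CPM in the mutant libraries s19, s20 and s21. The groups did not overlap, and Mbd2 was higher by 2.06 ± 0.22 on the log2 scale (adjusted p = 5.81e-07, edgeR), a fold of 4.16. In WT it was 40.8 to 50.4 CPM. Reads of the construct and of the endogenous gene cannot be told apart in these counts, and a substitution leaves no trace in them. Mbd3 was 34.2, 73.8 and 69.1 CPM in the knockout and 76.9, 66.7 and 70.9 CPM in the mutant, a difference of 0.28 ± 0.27 (adjusted p = 0.398, edgeR), while WT libraries held 149 to 157 CPM. The transcript therefore stayed countable after the deletion, at a lower level than in WT in all 6 libraries. Further features set libraries apart. Transcripts of chromosome 1 lay at a median of -0.27 relative to the group mean in knockout library s04 and at 0.20 in s06. Over chromosome 1 the median log2 fold change of mutant minus knockout was 0.23, against 0.05 over all genes tested. The part of the knockout libraries' shift in this difference was not tested. Uty, a Y-linked demethylase gene, was at 0.90 to 2.04 CPM in the knockout, 0.46 to 0.79 CPM in the mutant and 9.25 to 17.6 CPM in WT. The median SD of log2 CPM over genes was 0.25 in MBD2aR181C, 0.19 in MBD3KO and 0.29 in WT.

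Mutant MBD2a was accompanied by a change in a large share of the transcriptome. Between MBD2aR181C and MBD3KO 5164 genes were called, 31.1% of those tested, of which 2162 (13%) were higher and 3002 (18.1%) were lower in the mutant. The changes were large: 515 called genes differed by more than 4 on the log2 scale, 238 of them higher and 277 lower, and the median called gene rose by 1.79 or fell by 2.04. The median of all genes tested was 0.05. Scaling by library size alone moved it to -0.09, and the share of called genes that were higher went from 41.9% to 35.2%. Libraries of both groups did not overlap for 10501 genes, 63.3% of those tested. By gene list, neural, neuronal and Hox genes were higher, whereas trophoblast and interferon-response genes were lower. Each list is set against the 13% and 18.1% of all genes that rose and fell. In bulk RNA, fewer cells of a type and less RNA per cell cannot be told apart.

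**Figure D1:**
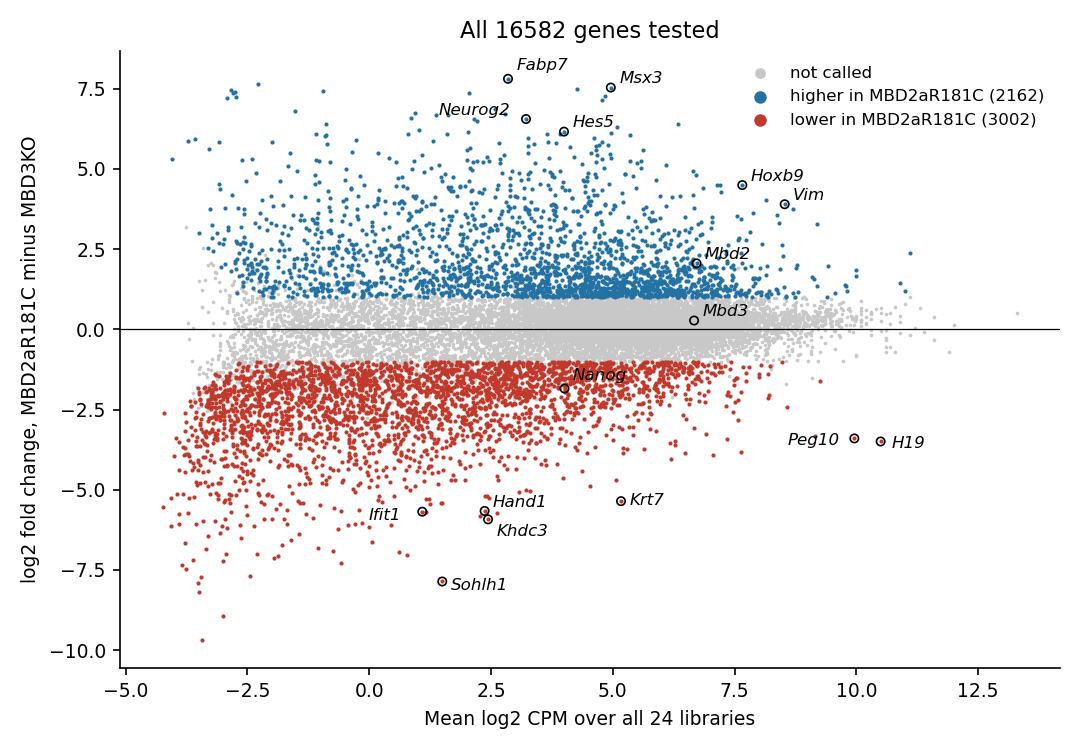
Each point is 1 of the 16582 genes tested, with its mean log2 CPM over all 24 libraries on the horizontal axis and the log2 fold change of MBD2aR181C minus MBD3KO on the vertical axis. The 2162 genes called higher are blue, the 3002 called lower are red, and circled genes are those named on the plot, from Fabp7 at 7.81 to Sohlh1 at -7.86.

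Genes of neural progenitors and radial glia were higher in the mutant. Of 18 tested, 13 rose, none fell and 5 were not called, and the median over the list was 1.94 on the log2 scale. The largest rise among genes averaging a log2 CPM of 1 or more over all libraries and without overlap was that of Fabp7, the brain fatty acid-binding protein of radial glia. Fabp7 was 0.343, 0.376 and 0.291 CPM in knockout libraries s04, s05 and s06, and 76.8, 49.3 and 104 CPM in mutant libraries s19, s20 and s21. All 3 knockout libraries were near absence and all 3 mutant libraries were within or above the WT range of 35.7 to 65.7 CPM, a rise of 7.81 ± 0.63 (adjusted p = 3.78e-08, edgeR). Vim, the intermediate filament of progenitors, was 21.8, 98.1 and 92.7 CPM against 1236, 726 and 1215 CPM, a rise of 3.90 ± 0.46. Here knockout library s04 was the lowest, but the groups were far apart. Pax6, a transcription factor of dorsal progenitors, was 3.52, 12.2 and 14.2 CPM against 121, 92.4 and 120 CPM (3.47 ± 0.48), and WT reached 142 to 197 CPM. Pax6 overlaps Elp4 on the opposite strand, and whether counting used strand is not given in the sources used here. Sox3, a SoxB1 factor of neuroectoderm, rose by 3.78 ± 0.27, and the POU factor gene Pou3f3 by 6.06 ± 0.52. The glutamate transporter gene Slc1a3, by contrast, was not called: it was 6.26, 21.5 and 23.8 CPM in the knockout and 37.1, 22.9 and 24.2 CPM in the mutant, below the 50.3 to 92.2 CPM of WT.

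Proneural factors, a list of the basic helix-loop-helix factors that commit progenitors to neurons and of zinc finger and EBF factors and Vxn that act with or after them, had the highest median of the lists. Of 19 tested genes 17 rose and none fell, with a median of 4.37. Their summed level was 22.4 to 65.7 CPM in the knockout, 690 to 1401 CPM in the mutant and 821 to 1464 CPM in WT. Neurog2 stood at 0.343, 0.465 and 0.476 CPM in the knockout against 52.3, 24.1 and 46.3 CPM in the mutant, a rise of 6.56 ± 0.55 (adjusted p = 6.25e-08, edgeR). Neurog1 rose by 5.96 ± 0.57, from 1.03, 1.86 and 1.96 to 130, 66.3 and 108 CPM. Neurod4, which acts later in the same cascade, was 0.143, 0.31 and 0.264 CPM against 34.6, 15.8 and 27.2 CPM (6.71 ± 0.64). In each of these genes library s20 was the lowest mutant library and the groups did not overlap. Neurod2 (0.0805 to 1.13 CPM in the mutant) and Neurog3 (0 to 0.34 CPM) were hardly detected in either group and were not called.

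In the Notch pathway, in which DLL and JAG ligands on one cell activate NOTCH receptors on its neighbour and the cofactor RBPJ then switches on HES and HEY repressors, 11 of 25 genes rose, 1 fell and 13 were not called, with a median of 0.83. The target Hes5, which keeps progenitors undifferentiated, was 0.743, 0.93 and 0.952 CPM in the knockout and 74.3, 48 and 67.5 CPM in the mutant. All mutant libraries exceeded all knockout libraries, by 6.16 ± 0.46 (adjusted p = 1.78e-08, edgeR), and lay below the 87.8 to 135 CPM of WT. The ligand gene Dll1 was 2.03, 2.85 and 3.04 CPM against 143, 83.4 and 124 CPM (5.46 ± 0.37), and the divergent ligand gene Dll3 rose by 4.33 ± 0.35. Dner, an atypical Notch ligand of neurons, rose by 5.35 ± 0.74. Hes5, Dll1 and Dner each share bases with an antisense gene. Among receptors and cofactors the changes were smaller: Notch1 rose by 1.93 and Notch3 by 1.23, while Notch2 (-0.47), Maml1 (0.44) and Rbpj (0.11 ± 0.17) were not called. The sign of Rbpj turned with upper quartile or library-size scaling. Heyl was the member that fell, by 2.17 ± 0.40, with 13.3, 18 and 19.4 CPM in the knockout and 6.82, 2.15 and 2.09 CPM in the mutant. The promoter of Hes5 is shown because it held 2 copies of the RBPJ-binding letters GTGGGAA, searched on both strands and set in capitals. The sequence is that of the RefSeq promoter table of GRCm38.p6, cut to the 250 bases before the gene start, which occurs once in mm9, and the coordinates are of mm9.
Hes5, chr4:154334782-154335031, forward strand: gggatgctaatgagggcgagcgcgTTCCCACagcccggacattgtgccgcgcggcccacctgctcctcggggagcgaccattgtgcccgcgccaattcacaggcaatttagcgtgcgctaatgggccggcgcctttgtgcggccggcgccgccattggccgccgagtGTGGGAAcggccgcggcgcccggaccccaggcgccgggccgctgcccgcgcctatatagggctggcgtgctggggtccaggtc
The first copy lies 226 bases and the second 83 bases before the start. The letters occur in 1779 of 32851 promoters of the same length (5.42%) and in 3 of the 21 Notch genes that had a promoter in the table. Hes5 was the 1 of 9 risen genes that held them. This search and those below were made with the changes already known, and a match describes letters, not a bound site.

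Genes of postmitotic neurons rose almost without exception, with 25 of 26 called higher, none lower and a median of 3.66. Isl1, a motor neuron factor, was the one not called, at 0.543 to 0.82 CPM in the knockout and 0.563 to 1.06 CPM in the mutant. Tubb3, the neuronal beta-tubulin, was 83.6, 94.0 and 125 CPM in the knockout and 1289, 646 and 1089 CPM in the mutant. Cntn2, an axonal adhesion protein, was 6.03, 12.7 and 16.8 CPM against 506, 241 and 333 CPM (4.92 ± 0.52). Elavl4, a neuronal RNA-binding protein, was 0.543, 2.21 and 3.73 CPM against 139, 63.6 and 92.4 CPM (5.49 ± 0.63). For these genes the mutant libraries were at least several-fold above the highest knockout library, and s19 was the highest and s20 the lowest of the mutants, while s03 was the lowest WT library. Gad2, a GABA-synthesising enzyme, rose by 5.23 ± 1.00. The neural cell adhesion gene Ncam1 rose by 2.99 ± 0.45 and Cd24a, a surface marker of neural commitment, by 1.05 ± 0.18. The call of Cd24a depends on where the fold threshold falls, since it was 0.89 to 0.97 under the other scalings, DESeq2 and without s19 or s04.

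**Figure D2:**
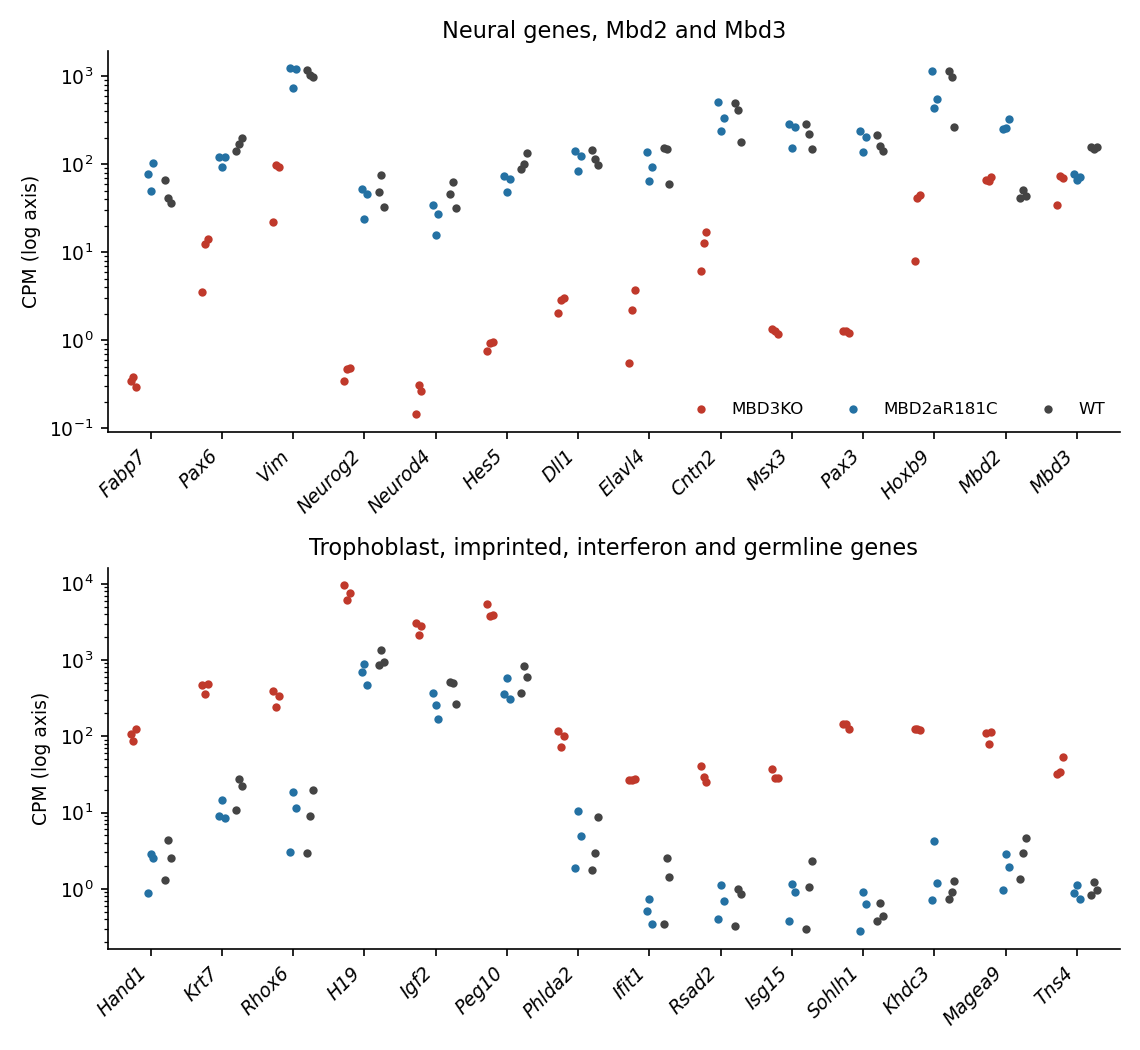
CPM on a log axis in each of the 3 MBD3KO (red), 3 MBD2aR181C (blue) and 3 WT (grey) libraries, 1 point per library. In the upper panel the mutant libraries lie with WT and above the knockout for the neural genes, as for Msx3 at 153 to 289 CPM. Hes5 (48 to 74.3 CPM) and Pax6 are below WT. For Mbd2 the mutant libraries lie above both groups, and for Mbd3 they overlap the knockout and lie below WT. In the lower panel they lie with WT and below the knockout, as for Sohlh1 at 0.276 to 0.912 CPM.

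Of 22 dorsal-ventral patterning genes of the neural tube, 15 rose, 2 fell and 5 were not called, with a median of 2.69. The dorsal progenitor factor Msx3 was 1.34, 1.28 and 1.16 CPM in the knockout and 289, 153 and 264 CPM in the mutant (7.54 ± 0.59, adjusted p = 2.58e-08, edgeR). Pax3, a dorsal progenitor factor, was 1.26, 1.28 and 1.22 CPM against 239, 137 and 206 CPM (7.27 ± 0.57). Knockout libraries agreed closely in both genes, and the mutant libraries were at the level of WT (150 to 289 CPM for Msx3 and 140 to 216 CPM for Pax3). Zic1, another dorsal factor, rose by 7.14 ± 0.61 and shares part of its locus with Zic4 on the opposite strand. The dorsal signal gene Wnt1 rose by 6.09 ± 0.59. The interneuron progenitor gene Dbx1 and the Iroquois factor gene Irx5, of intermediate and more ventral domains, rose by 4.83 and 5.22. Of the ventral genes, Shh (-0.50) and Nkx6-1 (1.09) were not called and Nkx2-2 fell by 2.16, at mean levels of 0.348 CPM in the knockout and 0.0691 CPM in the mutant. Lmx1b, a dopaminergic and dorsal spinal factor, was the other gene that fell, by 1.54 ± 0.38. Neural regulators outside this list were among the 12 largest rises: Prdm13 (7.48 ± 0.69), a dorsal interneuron factor, Skor1 (7.38 ± 1.13), a corepressor of dorsal interneurons, and the POU factor gene Pou3f4 (6.87 ± 0.64). The 12 were completed by Fstl5 (6.69), the proneural target Vxn (6.67) and the noncoding RNA gene Pantr1 (6.55), beside the genes given above. Library s04 held only 3 counts of Vxn and 3 of Pantr1, so their folds are loosely set.

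Hox genes, which give cells their position along the body axis and are opened by retinoic acid, were higher in 22 of 32 tested, and none fell, with a median of 2.41. Hoxb9 was 8.0, 41.3 and 44.9 CPM in the knockout and 1144, 439 and 550 CPM in the mutant (4.50 ± 0.77, adjusted p = 7.66e-05, edgeR). WT spanned 262 to 1148 CPM. Hoxa6 was 0.515, 1.84 and 2.12 CPM against 111, 51.9 and 70.5 CPM (5.68 ± 0.70). Knockout library s04 was the lowest in both genes, and the summed level of the list was 231 CPM there against 830 and 879 CPM in s05 and s06, and 3359 to 5773 CPM in the mutant. Hoxd3 and Hoxa7 rose by 4.81 and 4.83, and both share bases with an antisense gene. The anterior gene Hoxb1 did not differ in this way: it was 24.9, 51.4 and 47.9 CPM against 21.5, 50.3 and 29.7 CPM (-0.30 ± 0.35, adjusted p = 0.488). The members not called included the posterior genes Hoxa10, Hoxa13, Hoxc10 and Hoxd13, with means under 1 CPM in both groups, but also Hoxc5 (58.1 and 86.8 CPM).

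The retinoic acid pathway itself was split, with 5 of 16 genes up, 4 down, 7 not called and a median of 0.02. Of the 4 receptor genes 2 rose. Rarb was 46.5, 73.1 and 71.3 CPM against 335, 195 and 264 CPM (2.06 ± 0.29), and Rara rose by 1.62 ± 0.21. Rarg was -0.95 ± 0.29, just under the fold threshold with no overlap, and Rxra was -0.06 ± 0.12. The degrading enzyme Cyp26b1 rose by 1.35 ± 0.35, whereas Cyp26a1 was 361 to 479 CPM in the knockout and 408 to 561 CPM in the mutant (0.10 ± 0.26, adjusted p = 0.766, edgeR). Among genes that fell, the synthesising enzyme Aldh1a2 fell by 4.19, from a mean of 83.3 to 4.47 CPM with overlapping libraries, and the plasma retinol carrier Rbp4 fell by 3.22 ± 1.12. Rbp4 lost its call without s19 (adjusted p = 0.0702) or s21 (0.0654).

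Trophoblast genes fell. Of 22 tested, 20 fell, 1 rose and 1 was not called, with a median of -3.85, and the summed level was 3138 to 4198 CPM in the knockout, 243 to 351 CPM in the mutant and 267 to 474 CPM in WT. Hand1, a factor of trophoblast giant cells, was 106, 85.5 and 125 CPM in the knockout and 0.892, 2.9 and 2.57 CPM in the mutant (-5.66 ± 0.82, adjusted p = 1.43e-05, edgeR). Krt7, a keratin of trophoblast and simple epithelia, was 472, 359 and 481 CPM against 8.98, 14.7 and 8.44 CPM (-5.35 ± 0.73). The lowest knockout library was far above the highest mutant library in both genes. Rhox6, an X-linked homeobox gene of placenta and germ line, fell by 4.88 ± 0.93, and Plac1, a placental surface protein gene, by 4.71 ± 0.88. Rhox6 belongs to a family of near copies, so its counts are uncertain. The lineage regulators Cdx2, Eomes and Gata3 fell by 2.01, 2.90 and 2.39. The one riser was Tfap2a, a factor of both trophoblast and neural crest, whose counts may include an antisense neighbour, at 4.57, 3.72 and 4.36 CPM in the knockout and 74.1, 29.9 and 41.5 CPM in the mutant (3.53 ± 0.59), while its trophoblast paralogue Tfap2c fell by 2.99. Tpbpa, a spongiotrophoblast marker, was not called (2.59 to 7.77 against 0.531 to 3.97 CPM, overlapping).

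Interferon-response genes, the antiviral effectors and sensors induced by interferon signalling, fell as a block. Of 40 tested, 37 fell, none rose and 3 were not called, with a median of -2.42. The groups did not overlap for any of the 40, where 63.3% of all genes tested were without overlap. Ifit1, which binds foreign RNA ends, was 27.1, 26.9 and 27.3 CPM in the knockout and 0.510, 0.724 and 0.344 CPM in the mutant (-5.68 ± 0.81, adjusted p = 1.19e-05, edgeR). Rsad2, the antiviral enzyme viperin, was 40.9, 28.9 and 25.4 CPM against 0.404, 1.13 and 0.688 CPM (-5.45 ± 0.73). Isg15, a ubiquitin-like modifier, was 36.9, 28.3 and 28 CPM against 0.382, 1.15 and 0.900 CPM (-5.29 ± 0.78). The 3 knockout libraries were alike, and the mutant libraries were as low as WT, where the same genes were at 0.295 to 2.53 CPM. Oas1a, an RNA sensor of a multigene family whose counts may be split, fell by 5.29 ± 0.62. The transcription factors fell as well, Irf7 by 5.07 and Irf9 by 1.23, while Stat2 was -0.82 ± 0.20 (adjusted p = 0.00198) and so under the fold threshold. Antigen presentation genes fell less, H2-K1 by 1.33 and B2m by 1.24. The promoters of 4 fallen genes are shown because they held the letters of an interferon-stimulated response element, 2 copies of GAAA on the same strand with 2 bases between them, searched on both strands and set in capitals. They are given as for Hes5, in mm9 coordinates.
Ifit1, chr19:34715129-34715378, forward strand: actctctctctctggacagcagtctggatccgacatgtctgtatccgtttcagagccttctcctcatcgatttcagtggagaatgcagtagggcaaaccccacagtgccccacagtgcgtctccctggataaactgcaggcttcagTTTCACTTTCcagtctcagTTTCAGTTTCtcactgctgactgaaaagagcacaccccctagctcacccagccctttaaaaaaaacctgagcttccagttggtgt
Rsad2, chr12:27141318-27141567, reverse strand: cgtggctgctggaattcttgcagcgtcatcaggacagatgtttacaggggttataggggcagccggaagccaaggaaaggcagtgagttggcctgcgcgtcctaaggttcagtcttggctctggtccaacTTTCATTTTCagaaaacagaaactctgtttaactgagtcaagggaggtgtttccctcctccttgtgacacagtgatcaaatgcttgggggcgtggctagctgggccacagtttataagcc
Isg15, chr4:155574928-155575177, reverse strand: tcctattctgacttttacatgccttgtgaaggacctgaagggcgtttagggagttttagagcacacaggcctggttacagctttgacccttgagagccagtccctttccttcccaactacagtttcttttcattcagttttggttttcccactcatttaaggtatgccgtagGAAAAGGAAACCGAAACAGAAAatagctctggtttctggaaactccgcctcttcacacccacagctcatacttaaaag
Oas1a, chr5:121357535-121357784, reverse strand: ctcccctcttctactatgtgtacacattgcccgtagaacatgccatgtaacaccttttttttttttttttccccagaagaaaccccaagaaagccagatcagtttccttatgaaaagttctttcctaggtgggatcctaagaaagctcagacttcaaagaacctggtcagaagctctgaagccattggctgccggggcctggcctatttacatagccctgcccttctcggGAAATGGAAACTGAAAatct
Ifit1 held the letters 104 and 85 bases before the start, Rsad2 at 120 bases, Isg15 in 3 overlapping copies at 78, 72 and 66 bases, and Oas1a in 2 overlapping copies at 20 and 14 bases. The letters occurred in 978 of 32851 promoters (2.98%) and in 12 of the 31 interferon genes with a promoter in the table (38.7%). Of the 28 fallen genes with a promoter, 9 held them, and so did Stat2, Ifitm2 and Cxcl10, the 3 genes not called.

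Germline and oocyte genes, many of them silenced by promoter methylation in somatic cells, fell in 13 of 27 tested, 1 rose and 13 were not called, with a median of -1.39. Sohlh1, a transcription factor of early germ cells, was 144, 144 and 125 CPM in the knockout and 0.276, 0.912 and 0.635 CPM in the mutant, against 0.376 to 0.660 CPM in WT. It fell by 7.86 ± 0.40 (adjusted p = 1.3e-10, edgeR), with no overlap and the 3 knockout libraries close together. Khdc3, an oocyte protein of the subcortical maternal complex, was 125, 123 and 120 CPM against 0.722, 4.29 and 1.19 CPM (-5.92 ± 0.50). Sohlh2, the partner of SOHLH1, was 121, 116 and 122 CPM against 1.4, 23.7 and 7.38 CPM (-3.48 ± 0.81), so library s20 stood above the other mutants. Dazl, a germ cell RNA-binding protein, fell by 2.11 ± 0.80 (adjusted p = 0.0299) with 47.1, 39.5 and 29.9 against 1.25, 19.8 and 6.19 CPM, and lost its call without s19, s21, s04 or s05 (adjusted p = 0.0511 to 0.106), in a fit of only the 6 libraries (0.0539) and with the older quasi-likelihood method (0.0647). Stra8, a retinoic acid-induced gene of meiotic entry, was not called: it was 662, 892 and 752 CPM in the knockout, and 72.4, 765 and 323 CPM in the mutant, where s20 was within the knockout range. The upstream sequence of Sohlh1 is shown because it held 3 copies of the E-box letters CACGTG, in capitals.
Sohlh1, chr2:25702769-25703018, reverse strand: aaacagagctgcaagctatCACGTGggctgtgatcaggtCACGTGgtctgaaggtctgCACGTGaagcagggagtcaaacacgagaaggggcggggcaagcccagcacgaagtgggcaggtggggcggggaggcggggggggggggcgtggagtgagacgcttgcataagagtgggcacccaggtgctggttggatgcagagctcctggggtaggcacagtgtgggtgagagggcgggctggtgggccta
The copies begin 231, 211 and 192 bases before the start. The letters CACGTG occurred in 1978 of 32851 promoters (6.02%), in 1187 of the 12533 tested genes with a promoter (9.47%) and in 14 of the 26 germline genes with one (53.8%). They were in 4 of 12 fallen germline genes, namely Tdrd1, Slc25a31, Taf7l and Sohlh1, and in Tdrd9, the gene that rose, so most of the matches were in genes not called.

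Imprinted genes fell in 6 of 18 and rose in 3 of 18 tested, with a median of -0.25, and 9 were not called. H19, a maternally expressed noncoding RNA, was 9603, 6106 and 7458 CPM in the knockout and 691, 895 and 469 CPM in the mutant (-3.50 ± 0.43, adjusted p = 2.61e-06, edgeR). Its neighbour Igf2, a paternally expressed growth factor, was 3075, 2098 and 2819 CPM against 367, 257 and 170 CPM (-3.33 ± 0.54). Peg10, a placental gene of retroviral origin, was 5418, 3783 and 3941 CPM against 360, 573 and 313 CPM (-3.40 ± 0.42). In each the groups were separate and the mutant overlapped the WT range. The placental growth restrictor Phlda2 fell by 4.08 ± 0.64, while Cdkn1c, which lies in the same imprinted domain on chromosome 7, was 539, 764 and 1068 CPM against 1099, 470 and 761 CPM (-0.02 ± 0.41). Ndn and Nnat, which are expressed in neurons, rose by 1.5 ± 0.22 and 1.16, the latter with overlapping libraries. The summed level of the list was 16351 to 20737 CPM in the knockout and 4665 to 6398 CPM in the mutant.

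Other genes with the largest falls belonged to no list. Ldoc1, an X-linked gene of retrotransposon origin, was 86.6, 74.1 and 121 CPM in the knockout and 0.849, 2.98 and 1.30 CPM in the mutant (-5.81 ± 0.77). Magea9, a cancer-testis antigen gene of a multigene family, fell by 5.74 ± 0.75, and the noradrenaline transporter gene Slc6a2 by 5.70 ± 0.78. Tns4, a focal adhesion protein gene, fell by 5.42 ± 0.50 and the aldehyde dehydrogenase gene Aldh3b2 by 5.42 ± 0.59. All 5 had mutant levels under 3 CPM in every library, as in WT apart from Magea9 (up to 4.60 CPM) and Ldoc1 (up to 3.21 CPM).

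Pluripotency genes were lower on average but varied between clones. Of 25 tested, 12 fell, 1 rose and 12 were not called, with a median of -1.76. Nanog, a core pluripotency factor, was 164, 84.3 and 40.3 CPM in knockout libraries s04, s05 and s06, and 1.42, 58.7 and 20.5 CPM in mutant libraries s19, s20 and s21. The groups overlapped, since s20 exceeded s06, and Nanog was not called (-1.84 ± 1.09, adjusted p = 0.157, edgeR). WT libraries also ranged from 0.805 to 30.7 CPM. Pou5f1, the gene of OCT4, was 176, 95.3 and 55.0 CPM against 5.97, 71.1 and 30.9 CPM (-1.60 ± 0.75, adjusted p = 0.0754). Without s20 both were called, Nanog at -3.19 and Pou5f1 at -2.60, and 23 of the 25 genes were called. Pou5f1 was also called without s06 (-1.95). Zfp42, the naive marker Rex1, was called (-2.31 ± 0.89, adjusted p = 0.0336) with 158, 75.6 and 47.8 against 2.68, 40.2 and 14 CPM, but not without s19, s21 or s04 (adjusted p = 0.105 to 0.139) or in a fit of only the 6 libraries (0.0603). Klf4, a reprogramming factor, was separate in every library, at 44.5, 41.2 and 44.2 CPM against 5.59, 10.9 and 5.58 CPM (-2.57 ± 0.66). Tdgf1, a Nodal coreceptor, fell by 2.86 ± 0.59 and the nuclear receptor gene Nr0b1 by 3.02 ± 0.36. Lin28b, an inhibitor of let-7 processing, rose by 1.47 ± 0.35, with 4.55, 15.4 and 15.3 CPM against 32.3, 33.4 and 32.4 CPM.

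Clone s20 was the mutant library highest in every one of the 10 genes with the largest SD of log2 CPM among mutant clones, taken from genes averaging a log2 CPM of 3 or more in the mutant. Besides Nanog these were the pluripotency-associated genes Dppa5a, L1td1, Rex2, Klf2, Aqp3 and Calcoco2 and 3 members of the Zscan4 cluster, which marks a small 2-cell-like state of stem cell cultures. Zscan4c was 53.1, 26.7 and 19 CPM in the knockout and 9.03, 153 and 73.0 CPM in the mutant, so s20 and s21 were above and s19 below all knockout libraries. Zscan4c, Zscan4d and Zscan4f are near copies whose reads may be split. WT library s03 was the highest of its group, with Zscan4c at 89.2 CPM against 2.98 and 9.24 CPM in s01 and s02. Summed over Pou5f1, Nanog, Zfp42 and Esrrb, the pluripotent markers were 175 to 626 CPM in the knockout, 16.1 to 204 CPM in the mutant and 14.6 to 99.8 CPM in WT, and their part in the other results was not tested. The falls of Sohlh1, Hand1 and Ifit1 were large in s20 too.

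**Figure D3:**
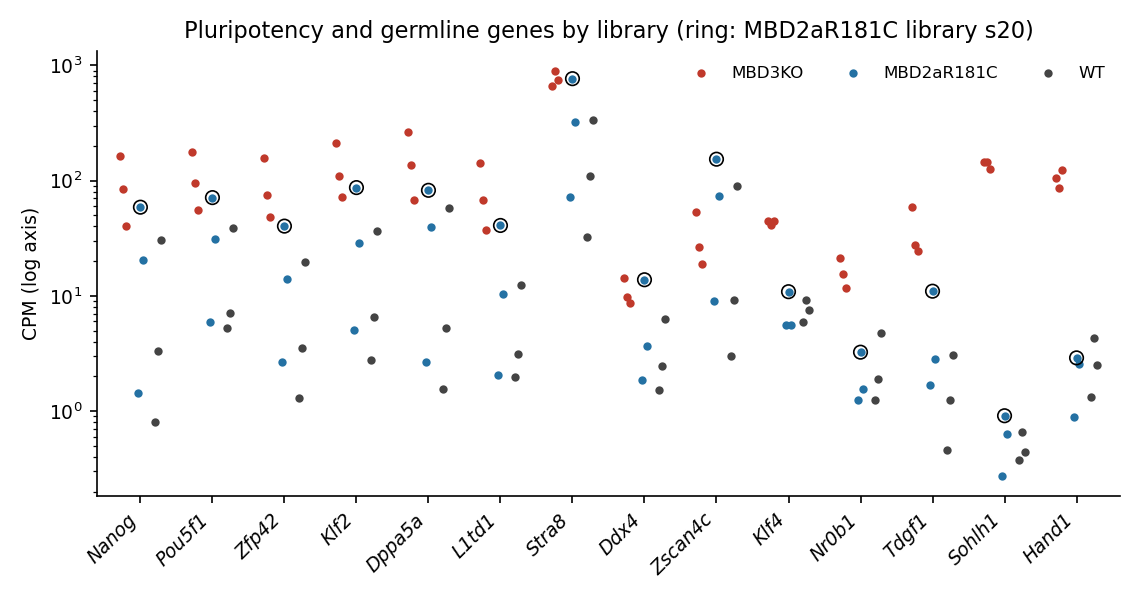
CPM on a log axis of pluripotency and germline genes, with Hand1 for comparison, in each MBD3KO (red), MBD2aR181C (blue) and WT (grey) library, with a ring around mutant library s20. Nanog in s20 (58.7 CPM) lies between knockout libraries s05 (84.3 CPM) and s06 (40.3 CPM), whereas Sohlh1 in s20 (0.912 CPM) lies far below all of them.

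Markers of further lineages that the cultures could hold were mixed. Of 26 primitive endoderm and yolk sac genes 7 fell, none rose and 19 were not called. The fibrinogen genes Fga and Fgb, secreted by yolk sac endoderm and liver, fell by 4.32 ± 0.86 and 3.22 ± 1.15, the latter losing its call without s19 or s21. The sum of the defining markers Gata4, Gata6, Sox17 and Dab2 was 37.5 to 98.4 CPM in the knockout, lowest in s04, and 37.9 to 56.4 CPM in the mutant. None of the 4 was called, but Dab2 did not overlap (18.3, 28.2 and 34.5 against 13.8, 17.1 and 10.5 CPM), and Gata6 was -1.24 where Sox17 was 0.50. Of 14 blood, macrophage and endothelial genes 7 fell and none rose (4 called without s19 or without s21), among them Cdh5, the VE-cadherin of endothelium, at 85.2, 146 and 174 CPM against 18.6, 28.8 and 20 CPM (-2.59 ± 0.42). Hematopoietic defining markers (Ptprc, Hbb-bh1, Gata1 and Spi1) summed to at most 1.20 CPM in any of the 6 libraries. In mesenchyme 5 of 21 genes rose and 4 fell. Col3a1, a fibrillar collagen, was 1.89, 23.2 and 16.5 CPM against 189, 41.1 and 55.4 CPM (2.77 ± 0.87, adjusted p = 0.0113, edgeR), and without the high library s19 it was 1.76 and not called. Of the 10 neural crest and glia genes 3 rose, namely Tfap2b (4.88 ± 0.71), Foxd3 (4.27 ± 0.89) and Olig2 (3.07), and 4 fell, among them Sox10, whose level of 67.5 CPM in knockout library s04 stood against 7.08 and 7.96 CPM in the other knockouts and 0.234 to 1.93 CPM in the mutant. Sums of these markers moved with the group in trophoblast (50.5 to 55.1 against 6.92 to 14.3 CPM), mesenchyme (21.3 to 53.8 against 65.6 to 276 CPM), neural crest and glia (10.4 to 79.8 against 4.16 to 6.95 CPM), blood (0.714 to 1.20 against 0.265 to 0.617 CPM), neuron (95.7 to 180 against 1105 to 2250 CPM) and neural progenitor (63.5 to 103 against 457 to 623 CPM, 4 of the 5 listed genes being in the table). The part of cell composition in the changes was not tested. Against the label of neural progenitor, the knockout libraries held Fabp7 and Hes5 under 1 CPM. The other progenitor markers in the table were detected there, Nes at 58.9 to 89.5 CPM and Pax6 at 3.52 to 14.2 CPM, below the mutant libraries.

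In the complex that MBD2 joins, the share of called genes was near that of all genes. Of 17 NuRD subunit and associated genes 2 rose, 3 fell and 12 were not called, with a median of 0.28. The median was 0.12 with library-size scaling and 0.01 without s04, and 3 members were called without s19 or without s21. Besides Mbd2, the deacetylase Hdac2 rose, from 112, 126 and 118 CPM to 302, 235 and 286 CPM (1.21 ± 0.13, adjusted p = 7.8e-07, edgeR), and WT was at 238 to 315 CPM. The scaffold Mta3 fell from 174, 120 and 116 CPM to 37.8, 63.0 and 37.5 CPM (-1.57 ± 0.23), against 31.2 to 42.6 CPM in WT. Sall4, a zinc finger partner of NuRD in stem cells, fell by 1.20, with overlapping libraries. The remodeller Chd4 was 752, 740 and 729 CPM against 1097, 949 and 867 CPM (0.39 ± 0.19, adjusted p = 0.0864), and the histone chaperone Rbbp4 was 0.61 ± 0.15 (adjusted p = 0.00259), under the fold threshold. The neural remodeller Chd5 fell by 1.08 ± 0.31 but lost its call without s19, s21 or s05 and in a fit of only the 6 libraries, and it shares bases with an antisense gene.

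Among 15 other methyl-CpG readers and methylation enzymes 2 rose, 2 fell and 11 were not called, with a median of 0.06. The reader Zbtb33 was 32.4, 41.9 and 38.7 CPM in the knockout and 84.5, 67.6 and 79.8 CPM in the mutant (1.03 ± 0.17). It stands just above the fold threshold, at 0.89 with library-size scaling and 0.93 without s19, and 2 members of the list were called in either case. Zbtb33 shares bases with an antisense gene. The methyltransferase cofactor Dnmt3l, typical of stem and germ cells, was 120, 28.5 and 17.3 CPM against 1.47, 12.2 and 2.20 CPM (-3.41 ± 0.90) and shares bases with Aire on the other strand. The de novo enzyme Dnmt3b fell by 1.27 ± 0.25. The maintenance enzyme Dnmt1 was 421, 338 and 327 CPM against 290, 317 and 285 CPM (-0.28 ± 0.14, adjusted p = 0.103, edgeR).

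In the cell cycle 2 of 20 genes rose, 1 fell and 17 were not called. Ccnd2, the cyclin of neural progenitors, was 25.4, 72.3 and 78.0 CPM in the knockout and 807, 573 and 723 CPM in the mutant (3.58 ± 0.39, adjusted p = 7.65e-07, edgeR), and the inhibitor Cdkn1b, which rises as neurons leave the cycle, was 1.36 ± 0.16 higher. Replication genes such as Mcm6 (0.16 ± 0.16) were not called, and Top2a (0.72 ± 0.19, adjusted p = 0.00279) stayed under the fold threshold. Of 16 p53 and stress genes 2 fell, 1 rose and 13 were not called, with a median of -0.42. Atf3 fell by 1.69 ± 0.27, Sesn2 fell by 1.15 ± 0.20 and Chac1 rose by 1.15 ± 0.25. Chac1 lost its call without s20, at 0.79. In glycolysis and hypoxia 3 of 19 rose and 2 fell, and knockout library s04 was apart from s05 and s06, as for Pkm, the pyruvate kinase gene, at 1923, 1255 and 1256 CPM against 2584, 2543 and 2467 CPM (0.78 ± 0.20). Without s04, 10 members were called instead of 5. Among 12 marker genes named in the study, some of them chosen on these samples and so no independent evidence, 6 rose, 3 fell and 3 were not called. Of 4 Y-linked and Xist genes 2 fell and 2 were not called.

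**Figure D4:**
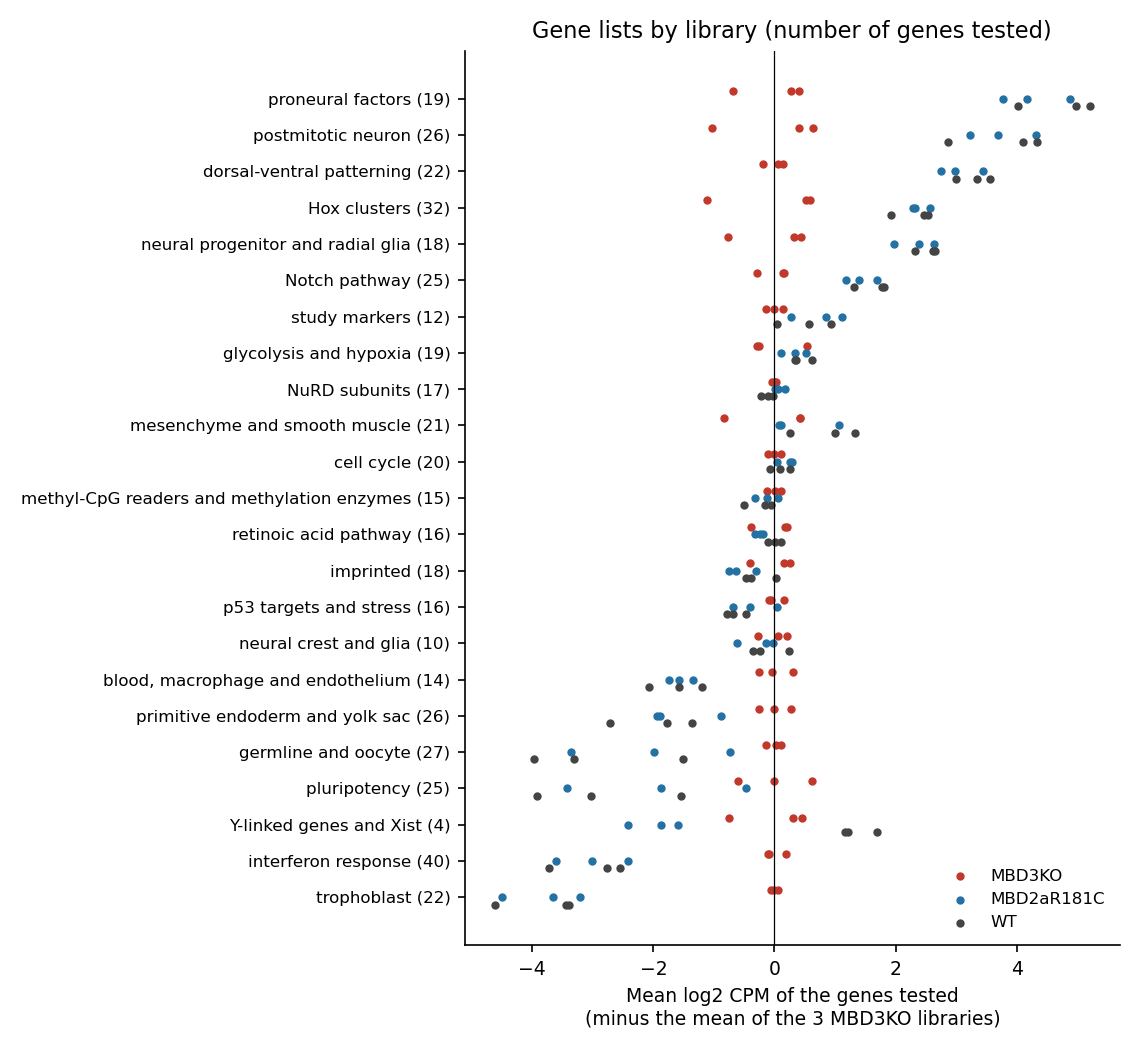
Mean log2 CPM of the tested genes of each list in each library, minus the mean of the 3 MBD3KO libraries, with 1 point per MBD3KO (red), MBD2aR181C (blue) and WT (grey) library and the number of genes in brackets. The mutant libraries lie furthest above the knockout for the 19 proneural factors and furthest below it for the 22 trophoblast genes, in both cases beside WT.

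Set beside WT, the mutant differed in few genes. Between MBD2aR181C and WT 3 genes (0.0181%) were called, with 655 at an unadjusted p under 0.05. Mbd2 was higher by 2.63, as above, and the Y-linked genes Uty and Eif2s3y were lower by 4.46 and 5.20, with Eif2s3y, a translation factor gene, at 0.51 to 0.714 CPM in the mutant, 17.4 to 29.1 CPM in WT and 1.27 to 6.86 CPM in the knockout. DESeq2 called 15 genes. Between MBD3KO and WT 5609 genes (33.8%) were called. These comparisons share libraries with the one described above, so values are only set side by side. For Fabp7 the knockout differed from WT by -7.12 ± 0.62, for Sohlh1 by 8.12 ± 0.41 and for Nanog by 3.04 ± 1.15, while the mutant differed from the knockout by 7.81, -7.86 and -1.84. Of the 5164 genes called between mutant and knockout, 447 differed from WT by more than 1 on the log2 scale in the mutant, and 2 of them were called. A gene not called against WT is not shown to be equal to it. For Nanog the 95% interval of mutant minus WT ran from -1.11 to 3.50, and for pluripotency genes the median difference was 1.07 where that over the neuron list was -0.08.

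A pair of groups that shares no library with the comparison gave a comparable contrast. MBD2t against MBD3a called 5293 of the 16582 genes tested (31.9%), of which 2905 were higher and 2388 lower in MBD2t. As the MBD2t libraries are repeats of 1 clone (median SD 0.07 on the log2 scale), that contrast holds no spread between MBD2t clones. Of the 2162 genes higher in the mutant than in the knockout, 1933 (89.4%) were among the 2388 higher in MBD3a (80.9% of that list). Of the 3002 lower in the mutant, 2455 (81.8%) were among the 2905 lower in MBD3a (84.5%). Opposite calls numbered 1 and 0. Conversely, 775 genes were called between mutant and knockout but not between MBD2t and MBD3a. Positions along this contrast were then read, with the MBD3a mean set to 0% and the MBD2t mean to 100% over its called genes. Those genes were called in the fit of all 24 libraries, so filter, scaling and spread were shared with the knockout and mutant. The knockout libraries s04, s05 and s06 stood at 113%, 93.6% and 92.1%, and the mutant libraries s19, s20 and s21 at -12.8%, 29.2% and 4.39%. The groups were separate, at 99.7% ± 11.8 (SD, n = 3) and 6.93% ± 21.2 (SD, n = 3), and the mutant libraries overlapped WT (-16.1% to 17.8%). The mutant mean was 17% without s19, -4.19% without s20 and 17.8% over the genes called between MBD2t and MBD3dMBD. The mutant was also compared with MBD3a directly: 1 gene (0.00603%) was called, Mbd2, higher by 2.77, with 516 genes at an unadjusted p under 0.05.

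**Figure D5:**
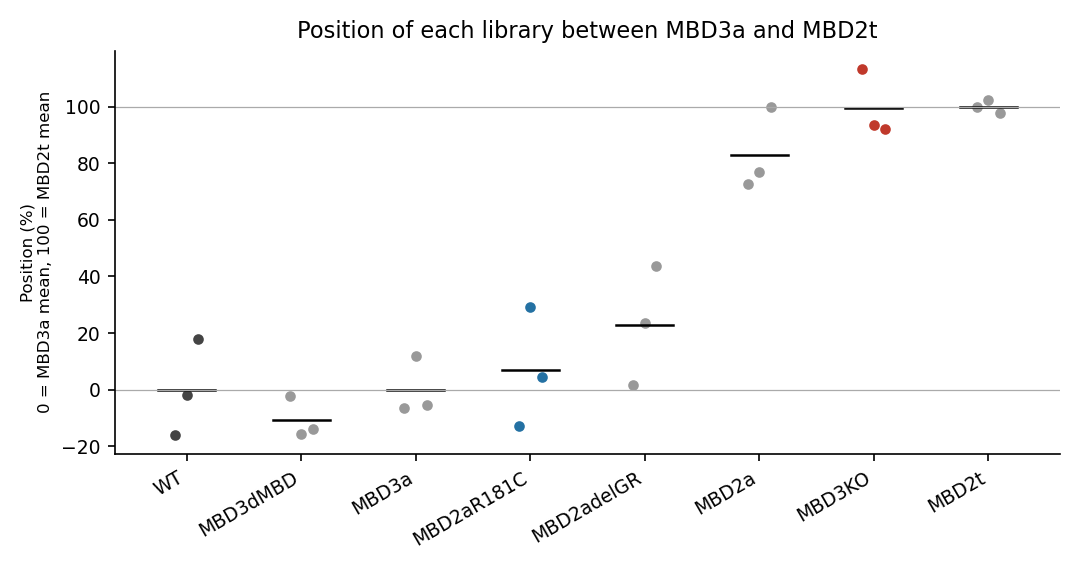
Position in percent of each of the 24 libraries along the contrast of MBD2t and MBD3a, where 0 is the mean of MBD3a and 100 the mean of MBD2t, with points for libraries and lines for group means. The 3 MBD2aR181C libraries (blue) lie between -12.8 and 29.2, and the 3 MBD3KO libraries (red) between 92.1 and 113.

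The construct without the substitution left the cells in another state. MBD2aR181C and MBD2a differed in 4525 genes (27.3%), 2016 higher and 2509 lower in the mutant, and the MBD2a libraries stood at 72.5% to 99.8% on the axis. Sohlh1 was 8.40 to 15.6 CPM in MBD2a (mutant minus MBD2a -4.25, adjusted p = 6.51e-07, edgeR), and Fabp7 was 0.177 to 0.518 CPM (7.87). The transcript level of Mbd2 differed between these lines. Mbd2 was 67.0 to 87.2 CPM in MBD2a, near the 64.2 to 70.9 CPM of the knockout and below the 253 to 325 CPM of the mutant (difference 1.79, adjusted p = 5.01e-06, edgeR). The substitution and the transcript level therefore cannot be told apart in this comparison, and protein was not analysed here. The study reports equal protein levels of MBD2a and MBD2adelGR in stem cells by Western blot, in a panel whose caption does not name the mutant. It also shows input protein of biotin-tagged MBD2 variants in stem cells, in a caption that does not list them. MBD2 staining is shown for the mutant in stem cells that lack both Mbd2 and Mbd3. Among called genes averaging a log2 CPM of 1 or more over all libraries and without overlap, other large differences were Msx3 (6.65), Vxn (7.0), Akap6 (6.35), a scaffold for protein kinase A, and Sparcl1 (6.45), a matrix glycoprotein gene, among the rises. By the same limits the largest falls were Sohlh1, Ifit1 (-4.20), Fga (-4.07), Slc13a4 (-4.10) and Gpx2 (-4.79), a glutathione peroxidase gene of gut epithelium.

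Against MBD2adelGR 390 genes (2.35%) were called, 178 higher and 212 lower in MBD2aR181C. Mbd2 was 280 to 700 CPM there. Within the same limits on level and overlap, the largest rise was that of Mfap2, a microfibril protein gene, which was 15.7 to 24.5 CPM in the mutant and 0.387 to 0.799 CPM in MBD2adelGR (4.96 ± 0.35, adjusted p = 2.53e-07, edgeR), and the fibrillar collagen gene Col1a1 (4.87), the smooth muscle actin gene Acta2 (4.26), Sparcl1 (3.96) and the collagen receptor gene Ddr2 (3.90) followed. Sparcl1, Col1a1 and Ddr2 share bases with antisense genes. The 5 largest falls within these limits were those of the pepsinogen gene Pga5 (-5.64), Fgb (-5.36), the cathepsin gene Ctsh (-4.32), the activin antagonist gene Fst (-3.81) and the endoderm factor gene Gata4 (-3.69 ± 0.97, adjusted p = 0.0475), the last at 5.16 to 12.8 CPM in the mutant and 12.8 to 291 CPM in MBD2adelGR. The count rested on single libraries. It was 42 without s18 and 1389 without s16, and 48, 780 and 91 without s19, s20 and s21, and 0 in a fit of only these 6 libraries.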

How the data were processed

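The authors sequenced poly(A) RNA as directional single-end libraries, trimmed reads with Trim Galore 0.6.6, aligned them to mm9 with STAR and deposited raw counts per gene made with QuasR. Whether counting used strand is not given in the sources used here. The deposited count table held 24 library columns, all used, and the 6 other samples were not analysed here. Genes passing edgeR's filterByExpr were scaled by trimmed mean of M-values and fitted over all 24 libraries with the group as the only term. The quasi-likelihood test of edgeR 4.0.16 in R 4.3.3 was used with Benjamini-Hochberg adjustment. A check on simulated data changed a far smaller share of genes than was called here, so it does not cover changes this broad. Log2 CPM used a prior count of 1. Calls needed an adjusted p under 0.05 and a log2 fold change over 1 in either direction. Named genes were the 12 largest calls in each direction among genes averaging a log2 CPM of 1 or more and without overlap of libraries, by the same limits the 5 largest in each direction against MBD2a and MBD2adelGR, the 10 most variable between mutant clones among genes averaging a log2 CPM of 3 or more there, and listed genes. Genes and lists were chosen with earlier results of these data known, and genes named as examples or for a changed call were chosen after their values were seen. List genes missing from the table were not analysed here. Some list members are not reported here by name. DESeq2 1.42.0, other scalings, filters and fits, and leaving out each library were the alternatives. Counts of 27993858 to 49392806 per library limit precision at low levels: 3 counts equal 0.061 to 0.107 CPM.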

Additional observations from a re-analysis of the deposited data

Results flagged for a closer look

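The effect of adding an MBD2a construct to Mbd3 knockout cells differed between constructs by a direct test: 4525 genes were called between MBD2aR181C and MBD2a (edgeR). Mbd2 transcript was also higher in MBD2aR181C, so the substitution and the level cannot be told apart. Between MBD2aR181C and MBD2adelGR the same test called 390 genes, a count that single libraries moved from 42 to 1389.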

How the results depend on the processing

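The count of 5164 genes between MBD2aR181C and MBD3KO stayed within 1.5 times under other scalings, filters, fits and DESeq2, and at 4470 to 5812 when 1 library was left out. It was 5001 in a fit without the MBD2t libraries and 4664 in a fit of only the 2 groups compared. Without a fold threshold 9397 genes were called, 4940 higher and 4457 lower (52.6% higher, against 41.9% with the threshold), with 8434 against MBD2a, 9990 between MBD3KO and WT and 9510 between MBD2t and MBD3a. Testing against the fold threshold itself (glmTreat) called 2968, and 1 gene against WT, 2043 against MBD2a, 16 against MBD2adelGR, 3469 between MBD3KO and WT and 3236 between MBD2t and MBD3a. The older quasi-likelihood method, an alternative chosen after seeing the data, called 1 gene against WT. Fits of only the lines compared called 0 genes against MBD2adelGR and 2 against MBD3a. DESeq2 called 15 genes against WT, 750 against MBD2adelGR and 6 against MBD3a. Leaving out 1 library gave 1 to 10 genes against WT (10 without s01), 42 to 1389 against MBD2adelGR and 1 to 4 against MBD3a (4 without s08). The sign of genes near 0 turned: Rbpj was -0.000299 with upper quartile and -0.0128 with library-size scaling, and Cyp26a1 -0.0186 and -0.0396. With 1 library left out, Rbpj ranged from -0.0569 to 0.39, Cyp26a1 from -0.0863 to 0.18, Col1a1 from -0.55 to 0.86, Dbi from -0.0423 to 0.31, Cdkn1c from -0.40 to 0.24, Kdr from -0.50 to 0.24 and Xist from -2.04 to 0.13. Apart from what the alternatives' construction shows, the cause was not tested. No paired analysis was possible because the columns of the count table carry library numbers and no replicate numbers.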
